A study of Homo sapiens with 6 samples.

Results

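Host genes of small nucleolar RNAs (snoRNAs) and long non-coding RNAs (lncRNAs) with well-studied roles were examined in the transcriptome of U87 cells, an established human glioblastoma line, after knockdown of the arginine methyltransferase PRMT6. The members were chosen by symbol, as the numbered SNHG genes together with 20 listed symbols, of which 19 were found. The symbol LINC00152 is an older name of CYTOR, which was found under its current name. The rule gave 47 of the 60612 rows of the table, namely 31 snoRNA hosts, 2 RNAs of nuclear bodies, 5 RNAs of imprinted or HOX loci and 9 other lncRNAs. The NC group was 3 libraries from U87 cells that received a scrambled shRNA by lentivirus with polybrene, and the shPRMT6 group was 3 libraries from U87 cells that received PRMT6 shRNA in the same way. Both groups grew in DMEM with fetal bovine serum and are described as independent replicates. The paper's supplementary methods describe puromycin selection of lentivirus-treated glioma cells to give stable cells, without naming these libraries. Which PRMT6 shRNA each library carried, and whether the libraries came from pools or clones, is not given in the sources used here.

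A snoRNA host is transcribed as an ordinary gene, and its introns release snoRNAs, which guide the methylation or pseudouridylation of ribosomal RNA. The exons left after splicing mostly encode no protein, and in hosts such as GAS5 they are known to be removed by nonsense-mediated decay when they are translated. Many hosts begin with a tract of pyrimidines (a TOP tract), a start that they share with genes of ribosomal proteins and of translation factors. Among the other members, NEAT1 builds paraspeckles, MALAT1 sits in nuclear speckles, H19, MEG3 and KCNQ1OT1 come from imprinted loci, HOTAIR and HOTAIRM1 lie in HOX clusters, and NORAD binds PUM2, an RNA-binding protein of the Pumilio family.

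The starts of 6 hosts are printed here because the TOP tract is the feature of the hosts that is visible in sequence. Each is 40 bases of RefSeq sequence on GRCh38.p14 (10 bases before the annotated start and 30 from it), read on the strand of the gene, with the tract in capitals. A tract was counted where the first base is C and at least 4 further pyrimidines (C or T) follow.
SNHG5: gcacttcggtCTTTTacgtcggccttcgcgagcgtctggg
SNHG19: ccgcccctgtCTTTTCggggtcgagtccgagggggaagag
ZFAS1: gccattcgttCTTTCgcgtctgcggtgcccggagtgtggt
SNHG12: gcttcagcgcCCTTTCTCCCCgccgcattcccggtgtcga
SNHG18: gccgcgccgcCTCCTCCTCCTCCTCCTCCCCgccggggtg
SNHG1: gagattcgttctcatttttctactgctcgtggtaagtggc
These lie at chr6:85678704-85678743 (minus strand), chr16:2155329-2155368 (minus), chr20:49278632-49278671 (plus), chr1:28581844-28581883 (minus), chr5:9546190-9546229 (plus) and chr11:62855856-62855895 (minus). SNHG5, SNHG19, ZFAS1 and SNHG12 carried a tract of 5 to 11 bases at the annotated start, SNHG18 one of 21 bases, and the start annotated for SNHG1 carried none by this count. A promoter entry was found for 38 members. A tract stood at the start of 7 of 27 hosts (25.9%), 0 of 11 other members, 45 of 70 genes of cytosolic ribosomal proteins (64.3%) and 1104 of all 27305 promoters (4.04%). The other hosts with a tract were SNHG4 and SNHG32. A start moved by a few bases in the annotation would change this count.

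The total counts were 56388161 to 75887696 in NC and 61805330 to 67630740 in shPRMT6. The members made up 0.179% to 0.192% of each NC library and 0.154% to 0.161% of each shPRMT6 library. The targeted gene, PRMT6, had 522, 606 and 449 counts in NC and 227, 282 and 355 in shPRMT6, a log2 fold change of -0.87 ± 0.19 (SE, adjusted p = 0.0225). Leaving out NC replicate 1, shPRMT6 replicate 1 or shPRMT6 replicate 2 gave PRMT6 an adjusted p of 0.0614, 0.0588 or 0.0713. VIM, CD44, NES and FN1, markers of the line, were abundant in every library. GFAP had 11 to 60 counts, SOX2 0 to 26 and S100B 0 in all libraries, so these 3 glial markers were absent or nearly so. Of the 8 listed markers of the line, 7 passed the filter on low counts, all but S100B. OLIG2 was among those that passed, and its counts are not given here. Of 8 listed markers of other cell types, PTPRC and CD3E (immune) and CDH5 (endothelial) had at most 4 counts. Such low counts did not hold for the whole list, as 5 of the 8 passed the filter on low counts and were tested. They were PECAM1 (endothelial), EPCAM and KRT19 (epithelial) and MAP2 and RBFOX3 (neuron). Of these 5, 0 were called higher and 0 lower in shPRMT6. FN1 was lower in shPRMT6 (log2 fold change -0.72, adjusted p = 0.00246). All folds below are log2 fold changes of shPRMT6 over NC from edgeR's quasi-likelihood test on the 6 libraries, with Benjamini-Hochberg adjustment over 18106 tested genes, whose median was -0.01. In RNA of bulk cells, fewer cells that express a gene and less RNA per cell cannot be told apart.

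Per length, in FPKM (fragments per kilobase of transcript and depth), the members spanned a range from NORAD at the top to a pair of RNAs without counts. NORAD, which binds PUM2, stood highest, with 51.4, 62.7 and 56.6 FPKM in NC and 50.4, 54.8 and 59.5 FPKM in shPRMT6. SNHG29 followed with 47.5, 36.1 and 43.8 FPKM in NC and 34.5, 32.6 and 29.6 FPKM in shPRMT6. All 3 shPRMT6 libraries of SNHG29 lay below all 3 NC libraries, whereas those of NORAD overlapped with NC. SNHG6 had 32.5, 28.2 and 31.1 FPKM in NC and 30.8, 28.7 and 23.7 FPKM in shPRMT6. SNHG32 had 30.4, 26.8 and 32.0 FPKM in NC and 25.6, 26.7 and 24.1 FPKM in shPRMT6. SNHG19 had 22.5, 14.5 and 16.7 FPKM in NC and 10.8, 11.0 and 10.4 FPKM in shPRMT6. SNHG6 and SNHG32 stood next to each other in this order with group means that differed by less than their SDs (30.6 ± 2.20 and 29.7 ± 2.64 FPKM in NC, n = 3). SNHG19 is short, with 342 exon bases in GENCODE 29 and fewer only in SNHG25 (278) among the tested hosts, and its group means were 7.28 counts per 1e6 scaled counts (CPM) in NC and 4.34 CPM in shPRMT6. A total of 29 members had a mean of at least 1 FPKM.

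**Figure D1:**
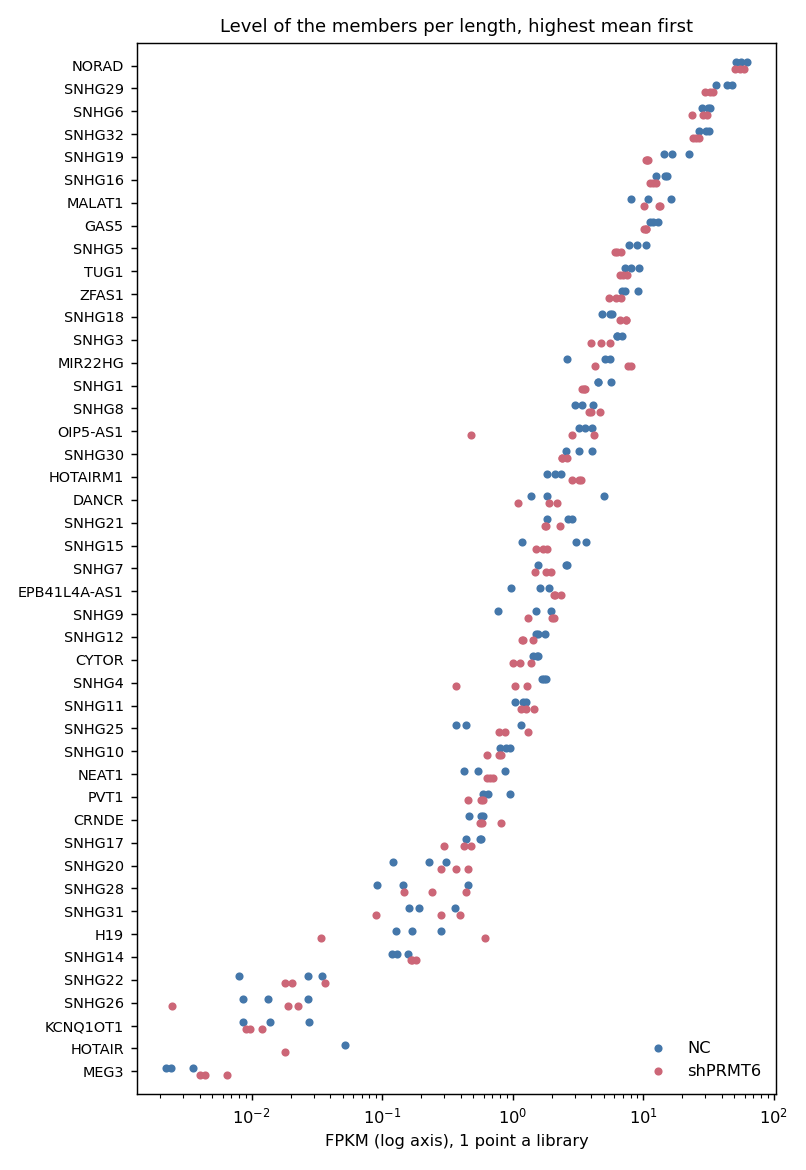
FPKM of the members in each library on a log axis, NC in blue and shPRMT6 in red, ordered by the mean over 6 libraries; libraries listed without counts are not drawn. NORAD stands highest at 50.4 to 62.7 FPKM, and OIP5-AS1 has 1 shPRMT6 library far to the left of the other 5.

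Of the 47 members, 41 passed the filter on low counts and 4 of them (9.76%) passed an adjusted p of 0.05, against 18.6% of all tested genes. SNHG1, SNHG5 and SNHG19 were lower in shPRMT6, where 9.06% of all tested genes were called lower, and HOTAIRM1 was higher, where 9.51% were called higher. The count of called members was therefore not above the background. More hosts lay below 0 than above: 18 of 28 tested hosts had a log2 fold change below 0, with a median of -0.27, beside 51.1% of all tested genes below 0. Over all 41 members the median was -0.23, with 25 below 0 and 16 above. All 3 shPRMT6 libraries lay below all 3 NC libraries for 14 members, 12 of them among the 28 tested hosts (42.9%), against 19.9% of all tested genes. They lay above for 4 members, 3 of them hosts, against 20.3% of all tested genes. An unadjusted p under 0.05 was reached by 14 members (11 lower and 3 higher), against 32.6% of all tested genes. No member passed the threshold of the study's methods, a log2 fold change beyond 1 with an unadjusted p under 0.05, which 5.92% of tested genes passed.

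**Figure D2:**
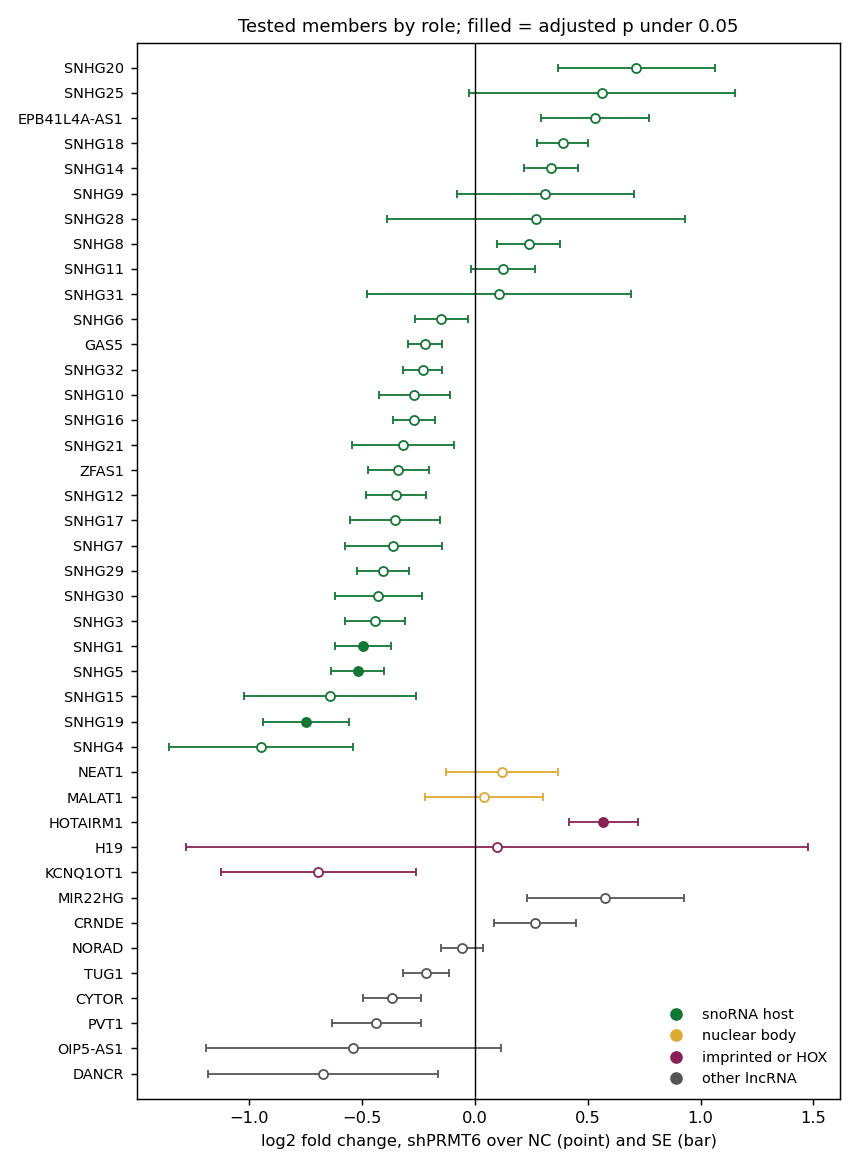
Log2 fold change of shPRMT6 over NC (points) with its SE (bars) for the 41 tested members, grouped by role; filled points passed an adjusted p of 0.05. The filled points are SNHG1, SNHG5 and SNHG19 to the left of 0 and HOTAIRM1 to the right, and H19 has the widest bar.

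The count of called members depended on the tool and on single libraries. DESeq2 called 8 members, with SNHG3, SNHG4 and SNHG29 added to the lower side and SNHG18 to the higher, against 22.9% of the genes it tested. Without NC replicate 2, edgeR called 8 members, against 16.9% of tested genes, of which SNHG1, SNHG5, SNHG15, SNHG16, SNHG19, SNHG29 and SNHG32 were lower and SNHG14 was higher. Without NC replicate 1 it called SNHG1 and SNHG5, without shPRMT6 replicate 2 SNHG3, and without shPRMT6 replicate 3 CYTOR. It called 0 members without NC replicate 3 and 0 without shPRMT6 replicate 1. The direction of the 4 members called with all libraries did not change in any of these fits.

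The hosts SNHG5, SNHG1 and SNHG19 passed the test, and each was lower in every shPRMT6 library than in any NC library. SNHG5 (chr6:85660950-85678748, minus strand, GENCODE 29 on GRCh38), the host of the U50 box C/D snoRNAs, had 160, 118 and 134 CPM in NC and 102, 94.1 and 91.0 CPM in shPRMT6. NC replicate 1 was the highest library, and the shPRMT6 libraries lay closer together than the NC libraries. The change was -0.52 ± 0.12 on the log2 scale (SE, adjusted p = 0.0273), which put the shPRMT6 mean at 69.8% of the NC mean. SNHG1 (chr11:62851988-62855914, minus strand), a host that carries several box C/D snoRNAs, had 27.6, 21.6 and 21.3 CPM in NC and 16.8, 17.1 and 16.1 CPM in shPRMT6. SNHG1 changed by -0.50 ± 0.12 on the log2 scale (SE, adjusted p = 0.0373). The drop was as large in proportion as that of SNHG5, with a shPRMT6 mean at 70.9% of NC. SNHG19 (chr16:2154797-2155358, minus strand), a short host of SNORD60, had 9.25, 5.89 and 6.71 CPM in NC and 4.37, 4.44 and 4.21 CPM in shPRMT6. This host changed by -0.75 ± 0.19 on the log2 scale (SE, adjusted p = 0.0392), to 59.5% of the NC mean.

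These calls stood near the threshold when 1 library was left out, which leaves 2 in its group. SNHG5 lost the call when NC replicate 3 (adjusted p = 0.0721) or shPRMT6 replicate 1, 2 or 3 was left out (0.0617, 0.0934 and 0.0953). SNHG1 lost it with the same libraries, at 0.0561 for NC replicate 3 and at 0.101, 0.102 and 0.116 for shPRMT6 replicates 1, 2 and 3. SNHG19 lost it in 1 fit more, at 0.0619 for NC replicate 1, 0.0806 for NC replicate 3 and 0.105, 0.106 and 0.115 for shPRMT6 replicates 1, 2 and 3.

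**Figure D3:**
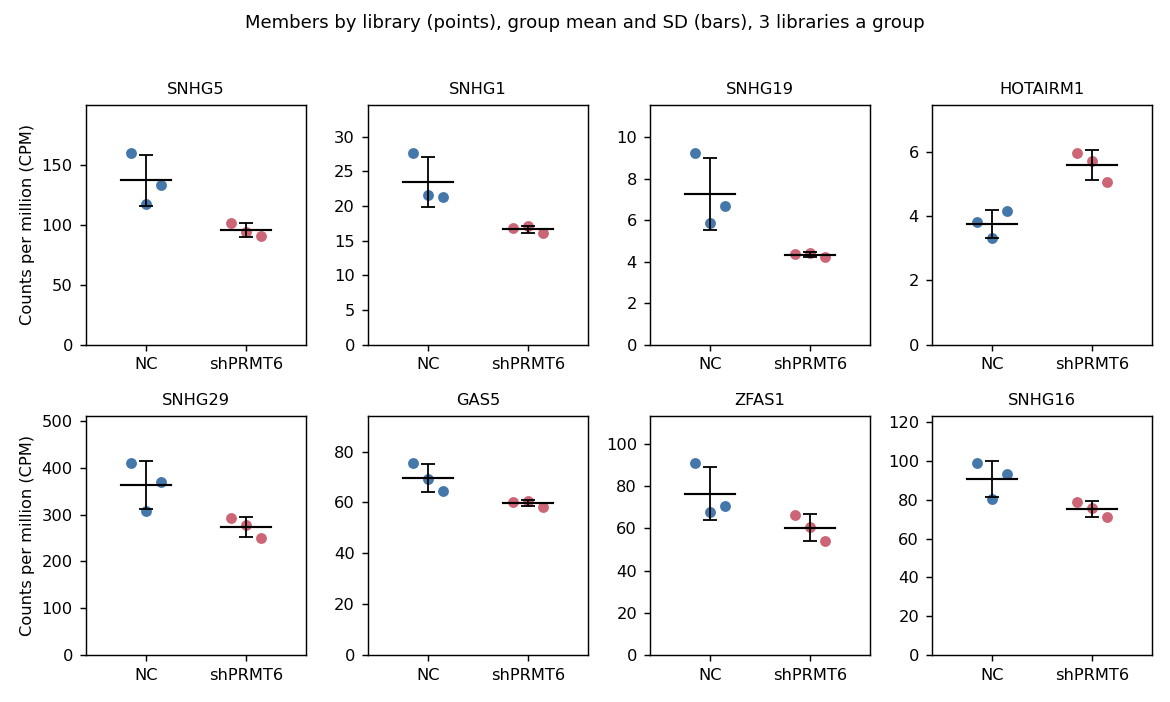
CPM in each library (points) of the 4 called members and of 4 abundant hosts, with the group mean (line) and SD (bar), n = 3 a group. The shPRMT6 libraries lie below all NC libraries in SNHG5, SNHG1, SNHG19, SNHG29, GAS5, ZFAS1 and SNHG16 and above them in HOTAIRM1.

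A further 9 hosts did not overlap between the groups and were lower in shPRMT6, without passing the adjusted test. SNHG29, annotated in GENCODE 29 as LRRC75A-AS1 and the most abundant host, had 410, 308 and 370 CPM in NC and 293, 277 and 251 CPM in shPRMT6 (log2 fold change -0.41 ± 0.12, SE, adjusted p = 0.0542). GAS5, the growth arrest host whose RNA is also known to bind the glucocorticoid receptor, had 75.4, 69.0 and 64.4 CPM in NC and 60.3, 60.7 and 58.3 CPM in shPRMT6 (log2 fold change -0.22, adjusted p = 0.0946). ZFAS1, a host next to ZNFX1, had 90.8, 67.9 and 70.6 CPM in NC and 66.6, 60.7 and 53.9 CPM in shPRMT6 (log2 fold change -0.34, adjusted p = 0.137). In all 3 hosts the highest library was NC replicate 1, and the gap between the groups was smaller than the spread within NC. The log2 fold changes of the others were -0.44 for SNHG3 (adjusted p = 0.0668), -0.27 for SNHG16 (0.0916), -0.23 for SNHG32 (0.118), -0.35 for SNHG12 (0.121), -0.95 for SNHG4 (0.163) and -0.27 for SNHG10 (0.287). SNHG3 shares 242 exon bases with the protein-coding gene RCC1 on its strand. How reads were divided between them was not tested, and the SNHG3 value is uncertain. SNHG32 was classed as protein-coding C6orf48 in GENCODE 29. Hosts whose groups overlapped had log2 fold changes of -0.15 for SNHG6, -0.32 for SNHG21, -0.35 for SNHG17, -0.36 for SNHG7, -0.43 for SNHG30 and -0.64 for SNHG15.

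A log2 fold change above 0 was measured in 10 tested hosts, and none of them passed the test. SNHG18 had 13.6, 13.0 and 11.1 CPM in NC and 17.1, 15.4 and 16.9 CPM in shPRMT6, a log2 fold change of 0.39 ± 0.11 (SE, adjusted p = 0.0585). SNHG14, the long imprinted host that carries the SNORD115 and SNORD116 clusters, had 17.8, 23.2 and 18.98 CPM in NC and 24.5, 26.6 and 24.6 CPM in shPRMT6, a log2 fold change of 0.34 ± 0.12 (SE, adjusted p = 0.103). EPB41L4A-AS1, the third host without overlap on this side, had a log2 fold change of 0.53 (adjusted p = 0.177) and 1 low library, NC replicate 1, at 4.54 CPM beside 7.59 to 10.8 CPM in the other 5. SNRPN, which shares 141 exon bases with SNHG14 on its strand, was higher in shPRMT6, with a log2 fold change of 0.31 (adjusted p = 0.0414) that passed in 1 of the 6 fits without a library. UBE3A shares 198 exon bases with SNHG14 on the other strand. It had 3708, 5468 and 2836 counts in NC and 5830, 5502 and 6025 in shPRMT6. How reads were divided between SNHG14 and these genes was not tested. The other log2 fold changes were 0.24 for SNHG8, 0.12 for SNHG11, 0.72 for SNHG20, 0.56 for SNHG25, 0.31 for SNHG9, 0.27 for SNHG28 and 0.11 for SNHG31. SNHG9, SNHG20, SNHG25, SNHG28 and SNHG31 were rare, at mean levels of at most 2.67 CPM in either group. SNHG28 shares 93.5% of its 75-base stretches with another annotated gene and SNHG21 47.9%, so the authors' counting could split their reads, and both values are uncertain. SNHG20 shares 460 exon bases on its strand with SEC14L1, which had 3166 to 4277 counts, so the SNHG20 value is uncertain as well.

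Summed over the 31 hosts, the level was 1162, 940.4 and 1055 CPM in NC and 894.4, 861.2 and 793.7 CPM in shPRMT6, a shPRMT6 mean of 80.7% of NC. All 3 sums in shPRMT6 lay below those in NC, the nearest pair being NC replicate 2 and shPRMT6 replicate 1. SNHG29 made up 31.6% to 35.2% of the host counts, and without it the mean was 83.5% of NC. By start, the 7 tested hosts with a TOP tract had a median log2 fold change of -0.35, with 6 below 0 and SNHG18 above, and the 17 tested hosts with a promoter entry but no tract had a median of -0.27, with 10 below 0. The difference between these medians was not tested.

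The pathway of the hosts was read from lists of ribosomal proteins, snoRNA-binding proteins and decay factors. Of 86 tested genes of cytosolic ribosomal proteins, 19 were lower, 1 (RPL26L1) was higher and 77 had a log2 fold change below 0, with a median of -0.22, beside 9.06% lower, 9.51% higher and 51.1% below 0 among all tested genes. RPLP1, RPS29 and RPSA were among those that were lower, with log2 fold changes of -0.78, -0.84 and -0.75. The hosts had a median of -0.27, and the difference between these medians was not tested. Of 18 tested genes for proteins that assemble with snoRNAs, 4 were lower and 3 were higher, with a median of -0.09. FBL, the methyltransferase of the box C/D particle, had a log2 fold change of -0.56 (adjusted p = 0.0078), and NOP56, a core protein of the same particle, one of -0.47 (adjusted p = 0.0052). RUVBL2, an assembly factor, and NHP2, a core protein of the box H/ACA particle, were lower as well, at -0.49 and -0.40. NOP10, also of the box H/ACA particle, was higher at 0.57 (adjusted p = 0.00971), as were NOLC1, a snoRNP chaperone, at 0.89 (adjusted p = 0.00088) and TGS1, the cap hypermethylase, at 0.43 (adjusted p = 0.0331). Members of the box H/ACA particle thus passed the test in both directions. TGS1 kept an adjusted p under 0.05 in 1 of the 6 fits without a library and NHP2 in 4, the others named here in all 6. Of 19 factors of nonsense-mediated decay, SMG8 and ETF1 were higher (0.49 and 0.23), EIF4A3 was lower (-0.26), and the median was -0.06. UPF1, the helicase of this pathway, had a log2 fold change of -0.19 (adjusted p = 0.102).

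The snoRNA genes inside the members had few counts in these libraries. GENCODE 29 places 145 snoRNA or scaRNA genes inside 31 members on their strand, 29 of which are hosts, and 98 of the 145 had at most 1 count in every library. None was found inside GAS5, although it is a known host, so this list of snoRNA genes is not complete. Most of these 98 are SNORD115 and SNORD116 copies inside SNHG14. Inside the other members, most such genes had more than 1 count in at least 1 library. Only 6 had at least 10 counts in every library, and the highest count was 150 (SNORD22 inside SNHG1, NC replicate 2). A snoRNA of each of the 3 called hosts is shown, chosen among those that hold both box C (TGATGA) and box D (CTGA), the short motifs, in capitals, that mark this class. Of the 7 snoRNA genes that GENCODE 29 places inside SNHG1, 3 hold both boxes in these letters and 4 do not.
SNORD50B: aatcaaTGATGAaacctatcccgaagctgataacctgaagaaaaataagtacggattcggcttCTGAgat
SNORD25: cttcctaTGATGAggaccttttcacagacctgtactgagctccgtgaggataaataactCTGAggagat
SNORD60: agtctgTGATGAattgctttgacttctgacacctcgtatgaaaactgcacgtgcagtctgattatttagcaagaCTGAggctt
SNORD50B lies in SNHG5 at chr6:85677589-85677658, SNORD25 in SNHG1 at chr11:62855564-62855632 and SNORD60 in SNHG19 at chr16:2155023-2155105, all on the minus strand. These sequences come from the GENCODE 29 transcripts. Both boxes, in this order on the strand of the RNA, were found in 92 of 107 SNORD genes inside members (86.0%), in 212 of 278 SNORD genes in all (76.3%) and in 298 of all 943 snoRNA genes (31.6%). Most of the 107 are SNORD115 and SNORD116 copies inside SNHG14, so the share of 86.0% rests mainly on that locus. SNORD87, inside SNHG6, was not among the 107. SNORD30, another snoRNA of SNHG1, had 23, 41 and 29 counts in NC and 18, 18 and 16 in shPRMT6. SNORA73B, inside SNHG3, had 49, 33 and 41 counts in NC and 27, 25 and 19 in shPRMT6. Both had fewer counts in every shPRMT6 library than in any NC library, and their hosts did not overlap either. The other 4 with at least 10 counts in every library gave a mixed picture. SNORD104 had 46, 74 and 44 counts in NC and 30, 39 and 32 in shPRMT6, while its host SNHG25 had a log2 fold change of 0.56. The row RF00560 inside SNHG7 had 30, 28 and 33 counts in NC and 40, 31 and 31 in shPRMT6, while SNHG7 had -0.36. SNORA71B in SNHG17 (11 to 17 counts) and SNORA24 in SNHG8 (26 to 51 counts) overlapped between the groups. Reads of an unspliced host cannot be told apart from reads of the snoRNA in a table of this kind, so these values were not read as snoRNA levels.

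The RNAs of nuclear bodies, NEAT1 and MALAT1, did not pass the test. MALAT1 had 174, 115 and 84.0 CPM in NC and 140, 106 and 137 CPM in shPRMT6, a log2 fold change of 0.04 ± 0.26 (SE, adjusted p = 0.933). NEAT1 had 11.7, 14.7 and 23.5 CPM in NC and 17.0, 19 and 18.1 CPM in shPRMT6, a log2 fold change of 0.12 ± 0.25 (SE, adjusted p = 0.787). In both RNAs the NC libraries spanned a range that held all 3 shPRMT6 libraries. Among 16 genes of paraspeckle proteins, the partners of NEAT1, 6 were lower, among them HNRNPH3, SMARCA4 and CPSF7, and FAM98A was higher, with a median of -0.26, beside 9.06% lower and 9.51% higher among all tested genes. The core proteins NONO, SFPQ and PSPC1 had log2 fold changes of -0.38, -0.11 and -0.36, with adjusted p of 0.0989, 0.234 and 0.117.

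HOTAIRM1 was the member that was higher in shPRMT6. It is transcribed from the HOXA cluster (chr7:27095647-27100265, plus strand) and is known from myeloid differentiation. It had 3.81, 3.31 and 4.17 CPM in NC and 5.97, 5.72 and 5.06 CPM in shPRMT6, with no overlap. The log2 fold change of HOTAIRM1 was 0.57 ± 0.15 (SE, adjusted p = 0.0446), and the shPRMT6 mean was 148.4% of NC. The call was lost whichever library was left out, with an adjusted p of 0.0947, 0.0961 and 0.0710 for NC replicates 1, 2 and 3 and of 0.132, 0.131 and 0.0787 for shPRMT6 replicates 1, 2 and 3. HOTAIRM1 shares 18.6% of its 75-base stretches with other annotated rows. The largest of these by counts, an unnamed misc_RNA row, had 83, 144 and 76 counts in NC and 204, 129 and 134 in shPRMT6. How reads of the locus were divided between these rows was not tested.

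The imprinted RNAs were low. H19, the maternal RNA next to IGF2, had 34, 75 and 31 counts in NC and 8, 0 and 143 in shPRMT6, a log2 fold change of 0.10 ± 1.38 (SE, adjusted p = 0.970). The shPRMT6 group held both the lowest and the highest library, and without shPRMT6 replicate 3 the log2 fold change was -3.42 (adjusted p = 0.126). KCNQ1OT1, the long antisense RNA of KCNQ1, had 53, 115 and 187 counts in NC and 68, 81 and 67 in shPRMT6, a log2 fold change of -0.69 (adjusted p = 0.320). MEG3 had 4, 8 and 4 counts in NC and 12, 8 and 8 in shPRMT6 and was not tested. HOTAIR, the RNA of the HOXC cluster, had 9, 0 and 0 counts in NC and 0, 0 and 4 in shPRMT6 and was not tested either.

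NORAD differed between the groups by less than the spread within each. It had 333, 402 and 360 CPM in NC and 322, 350 and 379 CPM in shPRMT6, a log2 fold change of -0.06 ± 0.09 (SE, adjusted p = 0.713). Its transcript of 5339 bases held 15 matches to the Pumilio motif TGTANATA on its own strand. At least as many were held by 6 of 9615 transcripts of at least 5000 bases, that of NORAD included. PUM2, which binds this motif, had a log2 fold change of -0.27 (adjusted p = 0.421). NORAD shares 15.8% of its 75-base stretches with other annotated genes. TUG1 had 88.2, 112 and 95.7 CPM in NC and 80.5, 90.9 and 83.5 CPM in shPRMT6, a log2 fold change of -0.22 (adjusted p = 0.199).

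CYTOR and PVT1 did not overlap between the groups and missed the threshold. CYTOR, a cytoplasmic RNA linked to tumour cell growth, had 33.1, 30.2 and 32.7 CPM in NC and 24.0, 21.2 and 29.2 CPM in shPRMT6, a log2 fold change of -0.37 ± 0.13 (SE, adjusted p = 0.0997). It shares 20.01% of its stretches with other genes, most of all with its near copy MIR4435-2HG, which had a log2 fold change of -0.12 (adjusted p = 0.721). The sum of the pair was 68.7, 62.3 and 72.2 CPM in NC and 59.4, 60.8 and 52.5 CPM in shPRMT6, again without overlap, at 85.0% of NC. NCAL1, which shares 436 exon bases with CYTOR on its strand, had 771, 1053 and 923 counts in NC and 1139, 1260 and 993 in shPRMT6, a log2 fold change of 0.32 (adjusted p = 0.158). With NCAL1 added, the sum was 82.5, 76.1 and 86.96 CPM in NC and 77.3, 81.2 and 67.2 CPM in shPRMT6, with overlap, at 91.9% of NC. Both sums were chosen after the values were seen, and the CYTOR value alone is uncertain. PVT1, the neighbour of MYC, had 18.2, 19.9 and 28.5 CPM in NC and 17.9, 13.8 and 17.4 CPM in shPRMT6, a log2 fold change of -0.44 (adjusted p = 0.181). MYC itself had 6088, 1127 and 6426 counts in NC and 563, 5010 and 5183 in shPRMT6, with 1 low library in each group. CRNDE had a log2 fold change of 0.27 (adjusted p = 0.362).

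In several members a single library stood apart from the rest of its group. OIP5-AS1, a cytoplasmic RNA that binds ELAVL1, had 54.9, 60.9 and 48.0 CPM in NC and 63.1, 7.28 and 42.4 CPM in shPRMT6. Its log2 fold change of -0.54 (adjusted p = 0.628) became -0.05 without shPRMT6 replicate 2, the low library. DANCR, also named SNHG13, holds SNORA26 but was classed here with the other lncRNAs, so the values given for the hosts leave it out. DANCR had 22.6, 60.6 and 16.7 CPM in NC and 13.3, 26.5 and 22.8 CPM in shPRMT6. Its log2 fold change of -0.67 (adjusted p = 0.417) became 0.09 without NC replicate 2, the high library. SNHG15 had 14.6, 5.60 and 16.9 CPM in NC and 8.54, 8.11 and 7.04 CPM in shPRMT6. Its log2 fold change of -0.64 (adjusted p = 0.297) became -0.99 (adjusted p = 0.0107) without NC replicate 2, the low library. MIR22HG had 18.4, 19.8 and 9.24 CPM in NC and 27.0, 28.7 and 15.2 CPM in shPRMT6, a log2 fold change of 0.58 (adjusted p = 0.305). In MIR22HG the library numbered 3 was the lowest of its group on both sides. Among genes with a mean of at least 5 CPM, 2 of 32 members (OIP5-AS1 and SNHG4; 6.25%) and 300 of 11041 tested genes (2.72%) had a library more than 1.5 log2 units from the median library, a measure chosen after these values were seen.

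**Figure D4:**
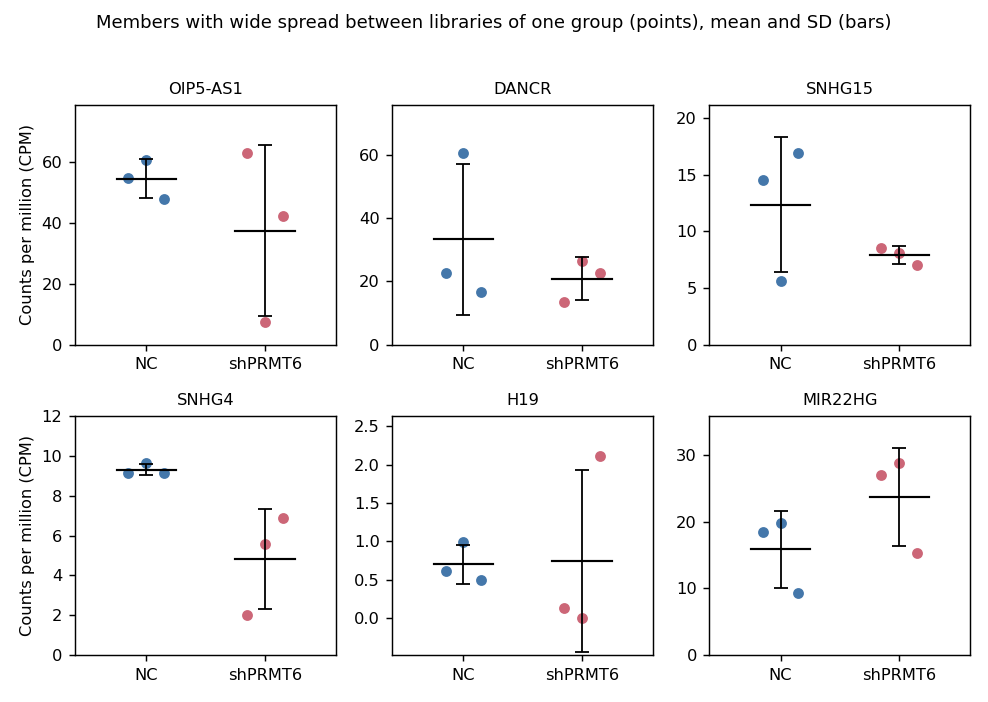
CPM in each library (points) of 6 members with a wide spread in at least 1 group, with the group mean (line) and SD (bar), n = 3 a group. OIP5-AS1 has 1 low shPRMT6 library at 7.28 CPM, DANCR 1 high NC library at 60.6 CPM, and SNHG15 1 low NC library at 5.60 CPM.

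SNHG4 had the most negative log2 fold change of the members, and its annotation overlaps a protein-coding gene. It had 9.14, 9.63 and 9.15 CPM in NC and 2.01, 5.57 and 6.87 CPM in shPRMT6, a log2 fold change of -0.95 ± 0.41 (SE, adjusted p = 0.163), and of -0.58 without shPRMT6 replicate 1, its lowest library. Its exons overlap MATR3, a nuclear matrix protein gene with 2 rows in the table, by 626 bases on the same strand, and 11.5% of its 75-base stretches are shared with other genes, most of all MATR3. The row with this overlap had 343, 841 and 737 counts in NC and 817, 9940 and 71 in shPRMT6, and the other had 9310, 13983 and 11654 in NC and 11927, 1993 and 13534 in shPRMT6. Between the MATR3 rows the counts moved in opposite directions in shPRMT6 replicate 2, while SNHG4 was lowest in shPRMT6 replicate 1. The sum of both MATR3 rows was 189 ± 14.0 CPM in NC and 198 ± 3.84 CPM in shPRMT6 (SD, n = 3). How reads were divided between SNHG4 and MATR3 was not tested, and the SNHG4 value is uncertain.

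There are 14 members that start within 2000 bases of a protein-coding gene on the other strand. Such starts are known from promoters that are read in both directions, but the distance was taken either way, so overlapping pairs are included. SLC3A2, which starts 188 bases from SNHG1 and encodes the heavy chain of amino acid transporters, was lower in shPRMT6 with a log2 fold change of -0.52 ± 0.11 (SE, adjusted p = 0.0195), beside -0.50 for SNHG1. It passed in 3 of the 6 fits without a library. RPS2, which starts 99 bases from SNHG9, was lower at -0.50 (adjusted p = 0.0182; passed in 2 of 6), beside 0.31 for SNHG9. BARD1, 518 bases from SNHG31, was lower at -0.73 (adjusted p = 0.0109; passed in 6 of 6), beside 0.11 for SNHG31. GLRX5, 1369 bases from SNHG10, was lower at -0.30 (adjusted p = 0.0478; passed in 1 of 6), beside -0.27 for SNHG10. GLRX5 and SNHG10 share 391 exon bases on opposite strands. Whether their values rest in part on the same reads was not tested. A partner that passed the test therefore stood beside members with values on both sides of 0. No other tested partner passed: TRAF7 beside SNHG19 had -0.20, ZNFX1 beside ZFAS1 -0.24, ZBTB37 beside GAS5 -1.49 (adjusted p = 0.0564) and SEMA5A beside SNHG18 0.32. RCC1, which shares 242 exon bases with SNHG3 on its strand, was lower at -1.10 (adjusted p = 0.00919) and passed in all 6 fits. OIP5, which overlaps OIP5-AS1 on the other strand by 470 bases, was lower at -0.92 (adjusted p = 0.0229) and passed in 2 of them. The exons of 27 members overlap a gene on the other strand in GENCODE 29, and whether strand was used in counting is not given in the sources used here, so reads of such pairs may not have been told apart.

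The filter on low counts was not passed by 6 members. MIR31HG and SNHG27 had 0 counts in all 6 libraries. SNHG22 had 2, 9 and 6 counts in NC and 4, 8 and 4 in shPRMT6, and SNHG26 had 12, 8 and 4 in NC and 2, 9 and 12 in shPRMT6. MEG3 and HOTAIR, described above, were the others. MIR31HG lies at 9p21, the region that holds CDKN2A, which is known to be deleted in U87 cells. CDKN2A had 0 to 2 counts there, CDKN2B 0 to 4, MTAP 10 to 33 and TUSC1, also at 9p21, 501 to 810, and the part of a deletion in the 0 counts of MIR31HG was not tested. None of the 6 tested genes of 9p21 passed the test.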

How the data were processed

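RNA of 6 U87 libraries (3 NC, 3 shPRMT6) was extracted with Trizol per the labels, or with an RNeasy kit per the methods, and libraries were made with a NEBNext Ultra RNA kit. The submitters' processing notes name HISAT2, HTSeq 0.13.5 and GRCh38. Read length, annotation release and the use of strand are not given in the sources used here. The authors deposited an estimated count per gene and library, written as whole numbers: of 3849 values of 1, FPKM placed 2318 (60.2%) under 0.5 read. The deposited FPKM values were scaled by the authors to transcript length and library depth, and genes without counts are listed at 1e-04 FPKM (read here as 0).

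Of 60612 identifiers, 60401 were matched to a symbol. The main test was edgeR's quasi-likelihood test (version 4.0.16, TMM factors, filterByExpr by group, Benjamini-Hochberg adjustment over 18106 genes, threshold 0.05). CPM are counts per 1e6 of the count of the library over the 18106 tested genes times its TMM factor (0.992 to 1.01). Alternatives used DESeq2 1.42.0, limma 3.58.1 on log2(FPKM + 1) or log2(FPKM + 0.1), other scalings and filters, a replicate block, a threshold of 0.01 and each library left out; each kind of fit was tested on simulated data. All tested members are named with a log2 fold change, called members and the 5 most abundant by FPKM library by library, and members under the filter with their counts. Members and lists were chosen with earlier results of these data known. Positions, overlaps and shared 75-base stretches are from GENCODE 29, starts from RefSeq on GRCh38.p14. Counts of 4 to 12 rest on few reads. The p-values test the difference between the groups against the spread between libraries, with 3 libraries a group and the spread estimated with information shared across genes. Some genes of the lists are not reported here.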

Additional observations from a re-analysis of the deposited data

How the results depend on the processing

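With all libraries, 1 member was called higher and 3 lower. DESeq2 called 2 higher and 6 lower, a minimum of 10 counts in every library 2 and 4, limma on log2(FPKM + 1) 2 and 4 and on log2(FPKM + 0.1) 2 and 3, both with a mean FPKM of at least 1. A filter of only 1 count in any library left 0 higher and 1 lower (SNHG5), limma without a filter 1 and 0, and a threshold of 0.01 left 0 and 0. Upper quartile factors gave 1 and 3 and no scaling factors 1 and 4. With 1 library left out, the calls ranged from 0 to 1 higher and from 0 to 7 lower. Why the counts differed was not tested. The replicate numbers did not pair the samples, with correlations of the deviations of 0.0456, -0.0399 and -0.0394 for equal numbers, and a replicate block called 1 higher (MIR22HG) and 1 lower (SNHG5).

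Of the log2 fold changes of members and PRMT6, 14 reversed with a library left out, 22 lost and 7 gained a call and 209 kept their direction and side of the threshold. Under the other alternatives 2 reversed, 11 lost and 11 gained a call and 328 kept both. The reversed values were those of H19 (-3.42 to 0.68 with a library left out, -1.69 with the replicate block and -0.0059 by limma without a filter), MALAT1 (-0.18 to 0.36), NEAT1 (-0.084 to 0.45), DANCR (-0.997 to 0.0897), NORAD (-0.12 to 0.016), SNHG28 (-0.23 to 1.21) and SNHG31 (-0.34 to 0.54). The members under the filter had at most 12 counts in any library, and what difference could be detected at that depth was not tested.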
